A study of Mus musculus with 6 samples.

Results

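Binding of thyroid hormone receptor β1 (TRβ1) was described at 6 mouse liver genes of glucose production and fatty acid oxidation: Pck1, G6pc, Cpt1a, Pdk4, Ppargc1a and Fgf21. The members are the ChIP-seq peaks whose midpoint lay in a window of 100 to 210 kb set for each gene on the mouse build mm9. They number 77 of the 51992 peaks in the list from hypothyroid liver and 67 of the 46092 peaks in the list from hormone-treated liver. The list from control liver, with 107 peaks in all, had 0 in these windows.

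The samples came from livers of mice 9 to 10 weeks old that were heterozygous for a BirA transgene, which encodes a biotin ligase. All animals received a diet with propylthiouracil (PTU), a blocker of thyroid hormone synthesis, for 3 weeks, and adenovirus through the tail vein. In the GFP PTU group the virus expressed GFP alone and the injections were saline. In the TRb PTU and TRb T3 groups it expressed GFP together with biotinylated TRβ1. These mice were injected for 4 days with saline in TRb PTU and with triiodothyronine (T3), the active hormone, in TRb T3. The virus supplied the tagged receptor, so the data describe the introduced receptor and not the liver's own. Each condition had 1 library, the labels do not say how many livers went into it, and no test between conditions was possible. Read depth is unknown, so a difference in peak number and a difference in depth cannot be told apart.

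TRβ1 is a nuclear receptor that sits on DNA with or without hormone, usually paired with the retinoid X receptor. Its classical element is a direct repeat of the half-site AGGTCA with 4 bases between the copies. Without hormone the receptor recruits corepressors, and T3 exchanges these for coactivators. In liver, thyroid hormone is known to promote both gluconeogenesis and the burning of fatty acids. Pck1 encodes phosphoenolpyruvate carboxykinase, which catalyses an early committed step of gluconeogenesis, and G6pc encodes the catalytic subunit of glucose-6-phosphatase, which releases free glucose. Cpt1a encodes the carnitine palmitoyltransferase that controls entry of long-chain fatty acids into mitochondria. Pdk4 encodes a kinase that switches off pyruvate dehydrogenase and so spares glucose. Ppargc1a encodes the coactivator PGC-1α, and Fgf21 encodes a fasting hormone secreted by the liver.

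RefSeq promoter sequences on build GRCm38.p6 were matched by symbol for all 6 genes. Each covers 250 bases before the gene start and 50 after it. The half-site AGGTCA was searched on both strands and was present in 2 of the 6, G6pc and Cpt1a. Over all 32851 promoters in the table, 16.3% held it. The direct repeat of AGGTCA with 4 bases between was in none of the 6 and in 0.0152% of all promoters, which says only that these letters are not in these stretches. The 250 bases before the start are shown for both genes with a match, because those letters are what the receptor is known to read. Capitals mark the half-site, which lies on the minus strand and so reads TGACCT here. It spans positions -54 to -49 in G6pc and -94 to -89 in Cpt1a, counted from the gene start. The promoters lie on the plus strand at chr11:101367466-101367715 and chr19:3323051-3323300 of GRCm38.p6. These coordinates are not on the scale of the peak coordinates, so whether a peak covers either promoter was not tested.
G6pc: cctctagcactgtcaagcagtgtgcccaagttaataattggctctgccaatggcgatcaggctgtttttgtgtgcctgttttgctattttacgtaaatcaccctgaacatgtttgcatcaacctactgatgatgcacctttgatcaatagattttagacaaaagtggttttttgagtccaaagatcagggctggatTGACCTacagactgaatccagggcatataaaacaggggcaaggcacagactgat
Cpt1a: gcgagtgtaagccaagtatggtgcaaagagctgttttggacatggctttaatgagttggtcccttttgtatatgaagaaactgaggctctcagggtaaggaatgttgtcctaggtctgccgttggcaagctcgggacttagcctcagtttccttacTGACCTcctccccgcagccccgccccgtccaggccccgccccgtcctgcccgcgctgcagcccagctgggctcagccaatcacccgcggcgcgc

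Peaks were called shared if they overlapped a peak of the other TRβ1 list by at least 1 bp, and PTU-only or T3-only if not. Over the 6 windows, 46 of 77 TRb PTU peaks were shared and 31 were PTU-only (40.3%, exact 95% binomial interval 29.2 to 52.1%). In the whole TRb PTU list 46.1% of peaks were PTU-only, a share inside that interval. Of the 67 TRb T3 peaks, 49 were shared and 18 were T3-only (26.9%, interval 16.8 to 39.1%), beside 38.7% of the whole list, also inside the interval. The intervals cover counting error over peaks and not variation between livers. Of the 18 T3-only peaks, 11 lay at G6pc. Without that window, 7 of 47 TRb T3 peaks were T3-only (14.9%, interval 6.20 to 28.3%), while 30 of 69 TRb PTU peaks were PTU-only (43.5%). Leaving out the G6pc window was chosen after its values were seen.

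The gene windows did not share a common balance. PTU-only peaks outnumbered T3-only peaks at Pck1 (4 against 1), Cpt1a (7 against 2), Pdk4 (2 against 0), Ppargc1a (7 against 1) and Fgf21 (10 against 3). G6pc had the opposite balance, with 1 PTU-only and 11 T3-only peaks. The whole lists also leaned toward PTU-only, with 23982 PTU-only and 17816 T3-only peaks. The PTU-only share was 30.8% at Pck1 and 35.0% at Cpt1a, below the 46.1% of the whole list. It was 63.6% at Ppargc1a and 66.7% at Fgf21, and the exact interval of each window holds 46.1%. Outside G6pc the T3-only share lay below the 38.7% of the whole list, from 0 at Pdk4 to 37.5% at Fgf21. When the TRb PTU list was cut to its 46092 highest-scored peaks, so that both lists had the same length, T3-only minus PTU-only peaks over the 6 windows went from -13 to -2. By window it went to 0 at Pck1 and at Cpt1a and from -2 to -1 at Pdk4. At Ppargc1a it went only from -6 to -5 and at Fgf21 from -7 to -6, while G6pc stayed at 10.

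**Figure D1:**
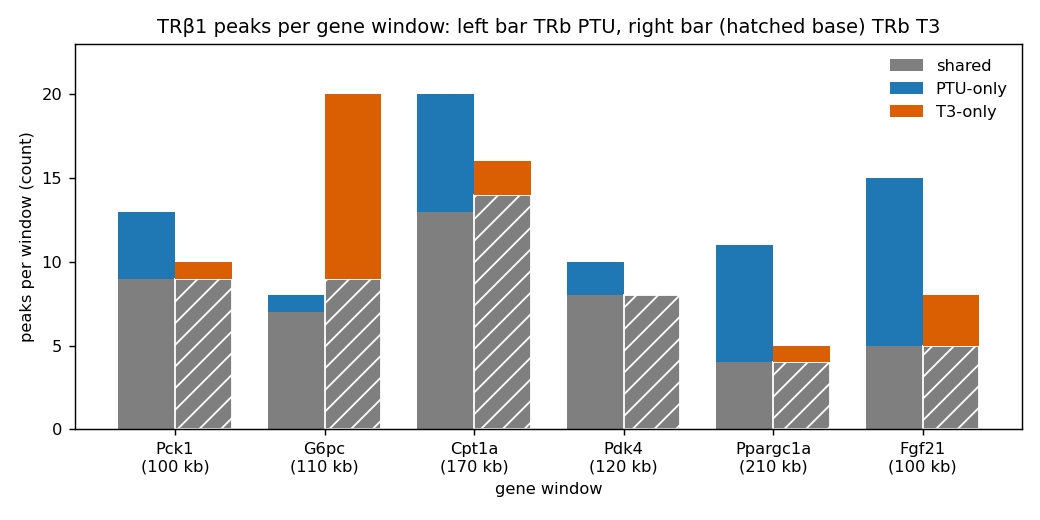
Number of TRβ1 peaks in each gene window (vertical axis, count), with the TRb PTU list in the left bar and the TRb T3 list in the right bar. Grey marks shared peaks, blue PTU-only and orange T3-only peaks, 1 library per condition. G6pc is the window with more T3-only (11) than PTU-only peaks (1), and Fgf21 has the most PTU-only peaks (10).

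The Pck1 window (chr2:172930000-173030000) held 13 TRb PTU and 10 TRb T3 peaks, and its strong sites were called in both conditions. All 9 shared sites were single pairs, meaning that each peak overlapped exactly 1 peak of the other list. The score of a peak is a value of unstated type that the authors deposited with it, and it ranks peaks within its own list. The strongest site, chr2:172972270-172972598, scored 237.23 in TRb PTU, where 99.2% of the list scored lower. Its partner scored 203.03 in TRb T3, above 98.7% of that list. It was thus near the top of both lists.

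A neighbouring site, chr2:172973589-172973803, scored 67.59 in TRb PTU and 86.09 in TRb T3, above 85.9% and 89.1% of the lists. A further pair of sites lay close together at chr2:172978069-172978555 and chr2:172978853-172979075. The first scored 117.82 in TRb PTU and 102.27 in TRb T3, in the top score decile of both lists. The second scored 116.29 in TRb PTU, also in the top decile, and 61.93 in TRb T3, above 82.4% of the list. The site chr2:172949805-172950265 was again in the top decile of both, with scores of 103.56 and 91.30.

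In all, 4 TRb PTU and 3 TRb T3 peaks of the Pck1 window were in the top decile of their list. Single-condition peaks there were weak. The PTU-only peaks scored 4.42, 4.82, 6.99 and 10.24, each above at most 23.2% of the list. The T3-only peak, chr2:172971224-172971376, scored 11.11, above 21.4% of its list. When the lower-scored 50% of both lists was left out, 0 PTU-only and 1 T3-only peak remained in the count, which turns the balance. That T3-only peak was chr2:172948713-172948879, which is shared when all peaks are used.

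To compare a site's rank between the conditions, scores were ranked again among the 27010 single pairs of the series, which gives rankings of equal length. The percentile of the strongest Pck1 site was 98.6 in TRb PTU and 97.9 in TRb T3. Over the 9 Pck1 pairs the percentile in TRb T3 minus that in TRb PTU had a median of -0.713 points, with a range from -26.2 to 25.2. The site chr2:172995676-172995924 ranked lower in TRb T3 (81.8 against 55.6), and chr2:172948697-172948870 ranked higher (16.7 against 41.9).

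G6pc (window chr11:101180000-101290000) was the window in which the conditions differed most in peak number, with 8 TRb PTU and 20 TRb T3 peaks. T3-only peaks made up 55.0% of the latter (interval 31.5 to 76.9%, beside 38.7% of the whole list, which lies inside it). The strongest site was a wide TRb PTU peak of 847 bp, chr11:101223509-101224355, scoring 183.91 and above 98.1% of the list. In TRb T3 it was covered by a pair of narrower peaks. The stronger of these, chr11:101223541-101223981, scored 122.75 (above 94.4% of the list), and chr11:101224066-101224336 scored 20.53. The TRb PTU peak chr11:101217105-101217504, which scored 45.08, likewise met 2 TRb T3 peaks, which scored 14.85 and 39.40. These account for the 7 shared TRb PTU against 9 shared TRb T3 peaks.

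Every single pair at G6pc ranked lower in TRb T3, 5 of 5, by a median of 31.2 percentile points. Over all 27010 pairs 51.1% ranked lower in TRb T3. The G6pc sites where a TRb PTU peak met more than 1 TRb T3 peak are not single pairs and were left out. They include the strongest site, above 98.1% of the TRb PTU list, with its stronger TRb T3 peak above 94.4% of its list. At the other, chr11:101217105-101217504, these shares were 76.9% and 70.1%. The widest gap was at chr11:101228669-101229123, which scored 99.96 in TRb PTU, in the top decile of the list. The TRb T3 peak there scored 6.95, above only 6.65% of its list, although the midpoints were 1.0 bp apart. The percentile of this site was 86.6 in TRb PTU and 4.08 in TRb T3, the largest rank difference of the 43 pairs in the 6 windows. At chr11:101213095-101213386 the percentiles were 83.4 and 52.3, and at chr11:101212518-101212969 they were 67.5 and 32.5. The pair at chr11:101222161-101222342 was weak in both, with scores of 7.74 and 2.02, the latter the lowest score of the whole TRb T3 list.

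Most T3-only peaks at G6pc fell into groups. The strongest lay in a run of 5 consecutive T3-only peaks over 17.6 kb, chr11:101247996-101265587. In that run chr11:101261524-101261989 scored 116.49 and chr11:101264168-101264574 scored 101.04, both in the top decile of the TRb T3 list. The last peak of the run, chr11:101265209-101265587, scored 39.27, above 70.0% of the list. The nearest TRb PTU midpoint was 7.48 to 24.8 kb from the peaks of this run. Another 3 T3-only peaks lay side by side over 2.32 kb, chr11:101225857-101228176, with scores of 8.56 to 16.78. Neighbouring T3-only peaks at chr11:101188732-101188911 and chr11:101189098-101189396 scored 18.00 and 21.08. The remaining T3-only peak, chr11:101222743-101223021, scored 15.22. The only PTU-only peak of the window, chr11:101224607-101224740, scored 9.01.

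The excess of 10 T3-only over PTU-only peaks at G6pc was reached by 0.0920% of 23920 windows of 110 kb laid end to end along chromosomes 1 to 19 and X. The median of those windows was 0 peaks in both lists. Among the 388 with at least 28 peaks in both lists together, as at G6pc, 4 had an excess of 10 or more (1.03%). G6pc was singled out after its counts were seen, as the most extreme of the 6 windows, so these shares are not chance levels. At the other windows T3-only minus PTU-only was negative. Among windows of the same length with at least as many peaks, 23.6% (Fgf21) to 53.0% (Pdk4) had a difference as low or lower. The excess at G6pc depended on where the window ended and on weak peaks. The 50 kb below the window held 8 PTU-only and 1 T3-only peak, and the 50 kb above it 2 and 0, so that with both flanks the excess was 1. Without the lower-scored 50% of each list it was also 1, with 3 T3-only and 2 PTU-only peaks. The 3 include both T3-only peaks of the top decile, and the 2 are shared when all peaks are used. By RefSeq on GRCm38.p6, the protein-coding genes next to G6pc are Aoc2 and Aoc3 on one side and Aarsd1 and Ptges3l on the other. Peaks were not assigned to any gene.

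Cpt1a (window chr19:3270000-3440000) carried the densest cluster of the 6 windows. Between chr19:3319462 and chr19:3326826, a span of 7.37 kb, lay 10 TRb PTU and 8 TRb T3 peaks. Its strongest site, chr19:3320116-3320443, scored 234.71 in TRb PTU and 200.06 in TRb T3, above 99.2% and 98.6% of the lists. Its percentile among single pairs was 98.5 and 97.8, so it kept nearly the same rank. The site chr19:3321660-3322064 scored 89.19 and 86.18 and stood at percentile 83.8 in both. The site chr19:3323883-3324241 scored 108.53 in TRb PTU, in the top decile, and 73.60 in TRb T3.

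Away from the cluster, 2 Cpt1a sites ranked lower in TRb T3 by over 50 points. The pair at chr19:3353434-3354013 went from percentile 71.2 in TRb PTU to 6.43 in TRb T3, with scores of 57.90 and 8.13. There the TRb PTU peak was 580 bp wide and the TRb T3 peak 132 bp. The pair at chr19:3293253-3293557 stood at 80.9 and 22.1. Over the 12 pairs the median difference was -4.86 points, with 7 lower and 5 higher in TRb T3.

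Cpt1a also had a strong site of the T3 list alone. The peak chr19:3345261-3345533 scored 180.39, above 98.0% of the TRb T3 list, and the nearest TRb PTU midpoint was 8326.5 bp away. The other T3-only peak, chr19:3334068-3334448, scored 17.29 and had a TRb PTU midpoint within 1 kb. Of the 7 PTU-only peaks the strongest was chr19:3323095-3323468 inside the cluster, which scored 53.73 and lay 792 bp from a TRb T3 midpoint. The remaining PTU-only peaks scored 4.60 to 25.87. Counting peaks with midpoints within 1 kb as shared left 4 PTU-only and 1 T3-only peak.

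Pdk4 (window chr6:5380000-5500000) was the window without T3-only peaks. All 8 TRb T3 peaks met a TRb PTU peak, and 2 of 10 TRb PTU peaks were PTU-only. The intervals, 0 to 36.9% for T3-only and 2.52 to 55.6% for PTU-only peaks, stand beside 38.7% of the whole list, just above the first, and 46.1%, inside the second. Without the lower-scored 50% of each list, 2 T3-only and 2 PTU-only peaks were counted at Pdk4. These T3-only peaks are shared when all peaks are used, and so is the PTU-only peak chr6:5399996-5400216. The strongest site, chr6:5448700-5449153, scored 183.91 in TRb PTU and 200.87 in TRb T3, above 98.1% and 98.6% of the lists. Its percentile among single pairs was 96.7 and 97.8. Near it, chr6:5445919-5446756 was a TRb PTU peak of 838 bp in the top decile (score 91.27). The TRb T3 peak within it was 385 bp wide and scored 38.44, and the percentile went from 84.3 to 58.3.

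A group of 4 sites over 3.26 kb, chr6:5457914-5461173, was called in both conditions. The TRb PTU scores there were 8.75, 8.07, 17.96 and 38.42, and the TRb T3 scores 29.55, 4.54, 25.22 and 59.98. In percentile 3 of these 4 ranked higher in TRb T3. The first of them moved from 8.27 to 48.6, the largest upward difference in the 6 windows. Over the 8 Pdk4 pairs 5 ranked higher in TRb T3, with a median difference of 7.34 points. The PTU-only peaks scored 2.47 and 29.15, and the latter, chr6:5399019-5399209, had a TRb T3 midpoint 969 bp away.

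Ppargc1a (window chr5:51790000-52000000), the longest window, was the most thinly occupied, with 5.24 TRb PTU and 2.38 TRb T3 peaks per 100 kb. Of its 11 TRb PTU peaks, 7 were PTU-only (63.6%, interval 30.8 to 89.1%), and of its 5 TRb T3 peaks 1 was T3-only (interval 0.505 to 71.6%). The whole-list shares of 46.1% and 38.7% lie inside these intervals. The strongest site, chr5:51943747-51944096, was shared. It scored 98.22 in TRb PTU, in the top decile, and 76.87 in TRb T3, above 86.9% of the list. Its percentile among pairs was 86.2 and 80.8. The shared site chr5:51919126-51919391 scored 41.62 and 59.78 and ranked higher in TRb T3 (59.4 against 73.6).

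PTU-only peaks at Ppargc1a were spread widely. A run of 4 over 71.7 kb, chr5:51831237-51902977, had no TRb T3 peak between its members, and the nearest TRb T3 midpoint was 16.4 to 60.8 kb away. Its strongest peak, chr5:51902728-51902977, scored 50.60, above 79.7% of the TRb PTU list. The other members scored 7.54 to 15.68. The T3-only peak of the window, chr5:51936987-51937200, scored 7.93, above 9.73% of its list. The PTU-only peak of second rank, chr5:51982893-51983128, scored 28.05.

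Fgf21 (window chr7:52820000-52920000) had the most PTU-only peaks of the 6 windows, 10 of 15 (66.7%, interval 38.4 to 88.2%, beside 46.1% of the whole list, which lies inside it). It held 0 peaks in the top decile of either list. The highest-scored shared sites lay at chr7:52864982-52865251 (TRb PTU score 51.30, partner 13.28) and chr7:52871734-52871932 (43.76, partner 39.96). The first stood at percentile 67.1 in TRb PTU and 19.5 in TRb T3, and the second at 61.3 and 59.9. Of 5 pairs, 4 ranked lower in TRb T3, with a median difference of -14.6 points.

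The strongest PTU-only peak at Fgf21 was chr7:52888038-52888235, with a score of 45.92, above 77.4% of the list and second in the window after the shared 51.30. The T3-only peaks scored 7.26, 7.30 and 18.54. A PTU-only peak at chr7:52844343-52844659 and a T3-only peak at chr7:52844727-52844858 lay side by side with midpoints 291.5 bp apart, so that this site counts as single in both lists by the 1 bp rule. The 50 kb above the window held 9 PTU-only and 0 T3-only peaks. Below it, the same length held 1 and 2. The protein-coding genes next to Fgf21 by RefSeq are Bcat2 and Fut1, and the nearest GFP PTU peak was 53.3 kb from the window's edge. For the other windows it was 872 kb or more away.

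**Figure D2:**
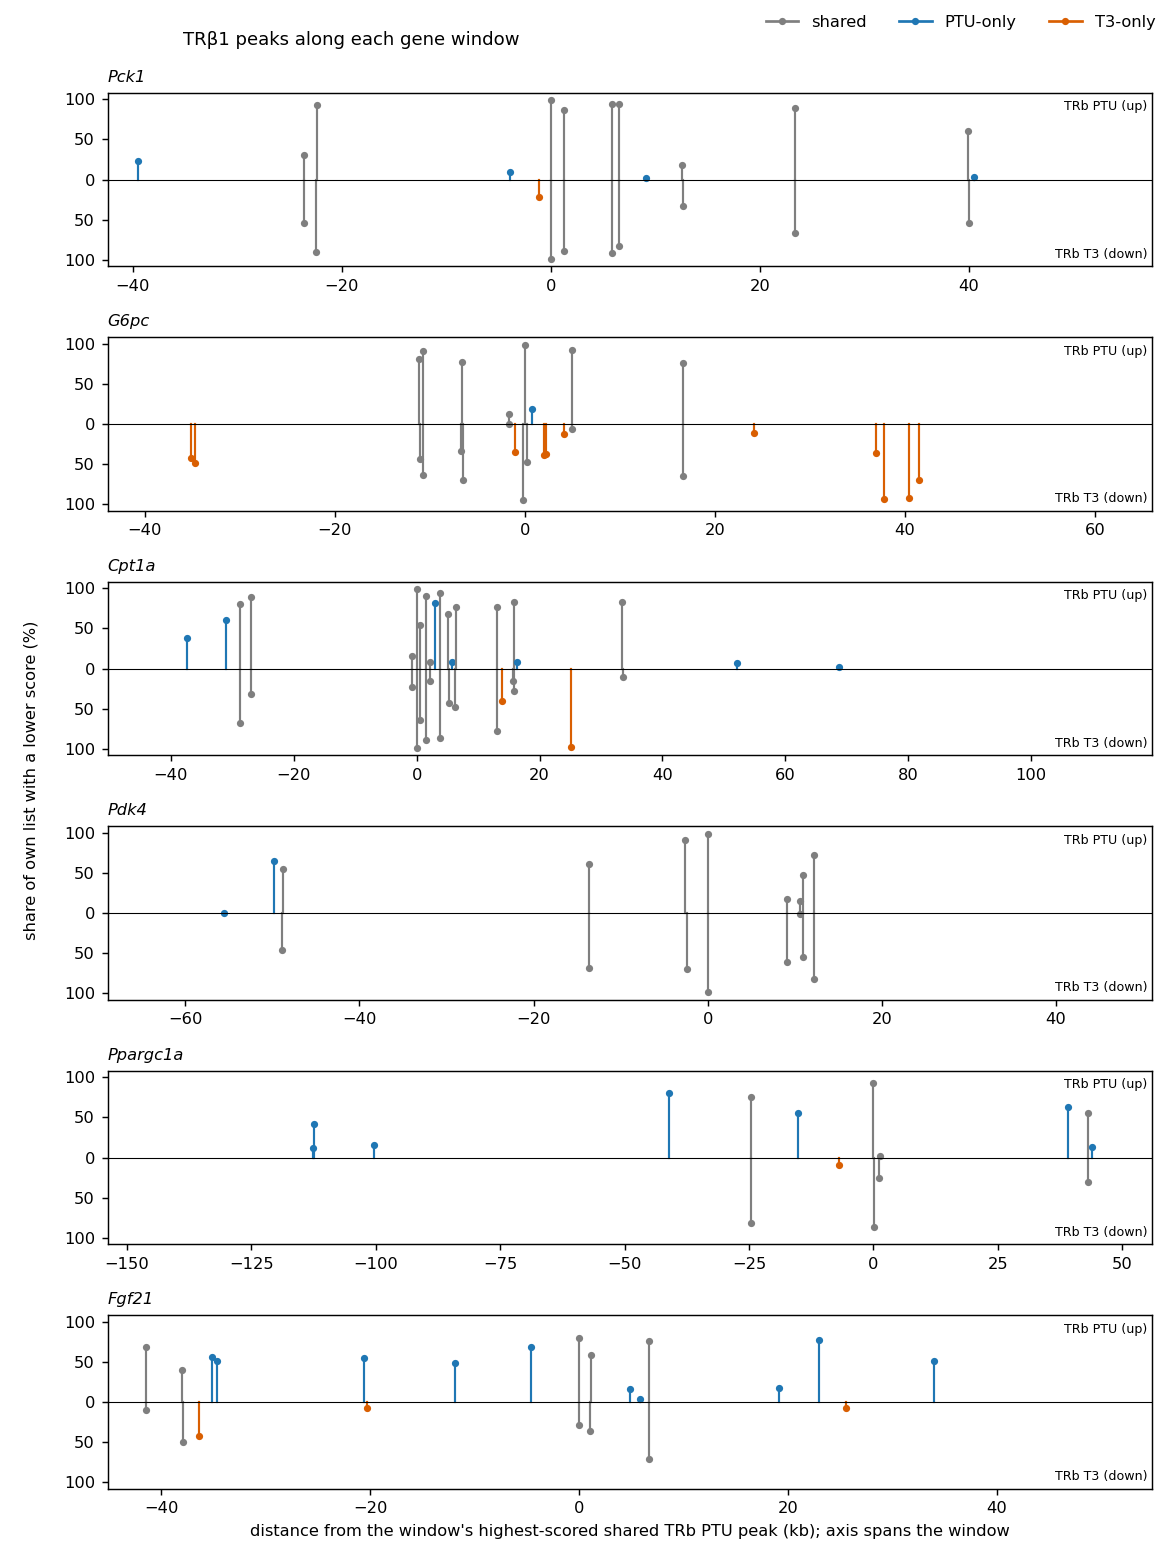
Position of every TRβ1 peak along the 6 windows, as the distance in kb from the window's highest-scored shared TRb PTU peak. Bar height is the share of the peak's own list with a lower score (%), upward for TRb PTU and downward for TRb T3, with grey for shared, blue for PTU-only and orange for T3-only. The tallest bars at Pck1, Cpt1a and Pdk4 stand at 0 kb in both directions, while the G6pc window has an orange run toward its right end.

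Strong sites were mostly shared, as they were in the whole lists. Of the 77 TRb PTU peaks, 13 were in the top decile of the list (16.9%, interval 9.31 to 27.1%, beside 10.0% by definition). Of these 13, 0 were PTU-only, which is near the 5.58% of the decile as a whole. Of the 67 TRb T3 peaks, 9 were in the top decile (13.4%, interval 6.33 to 24.0%, beside 10.0%). Of these 9, 3 were T3-only, against 8.70% of that decile. They were the peaks at G6pc with scores of 116.49 and 101.04 and the peak at Cpt1a with 180.39. The G6pc peaks lay in the same run, and without the G6pc window 1 of 6 was T3-only. The median PTU-only peak of the windows scored above 23.2% of the TRb PTU list, and the median shared peak above 76.8%. Over the whole TRb PTU list these medians were 32.5% and 67.6%. In the TRb T3 list they were 38.0% for T3-only and 54.8% for shared peaks, beside 33.7% and 61.4% over the whole list. Without G6pc the T3-only median was 21.4%, over 7 peaks.

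The 43 single pairs in the 6 windows ranked lower in TRb T3 in 27 cases (62.8%) and higher in 16, with a median difference of -2.28 points (SD 24.9). The shares over the series were 51.1% lower and 48.9% higher. Without G6pc, where all 5 pairs ranked lower, 22 of 38 pairs were lower (57.9%) and the median was -1.13 points. Of the 43 pairs, 10 were lower by 20 points or more, a share near the 22.7% of all pairs. Only 2 of the 43 were higher by as much, a smaller share than the 21.9% of all pairs. The 10 comprised 3 at G6pc, 3 at Cpt1a, 2 at Fgf21 and 1 each at Pck1 and Pdk4. The 2 higher ones were at Pck1 and Pdk4. Sites of the same window may not be separate observations.

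**Figure D3:**
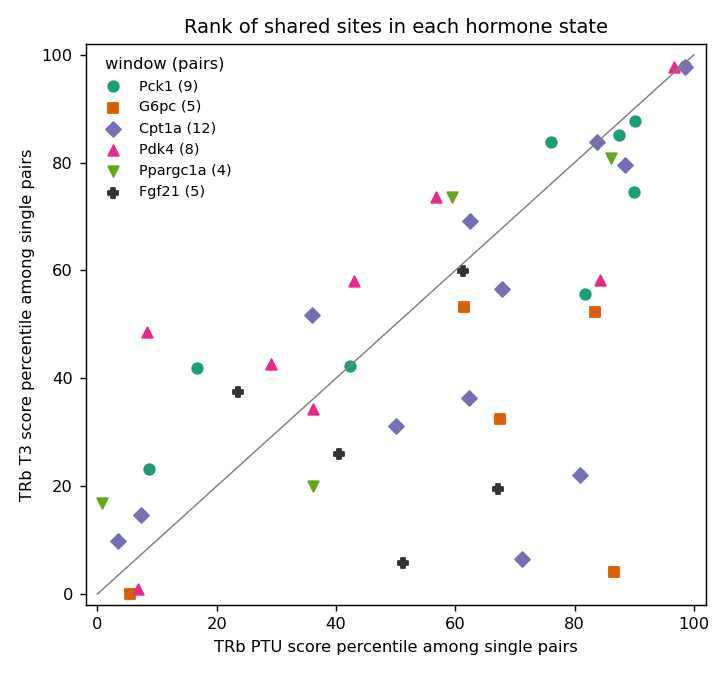
Score percentile of the 43 single pairs in TRb PTU (horizontal axis) and TRb T3 (vertical axis), each ranked among all 27010 single pairs, with symbols by gene and a line of equal rank. The strongest pairs of Pck1, Cpt1a and Pdk4 lie on the line at the upper right, all 5 G6pc pairs lie below it, and the lowest right point is the G6pc pair at 86.6 and 4.08.

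All 6 windows held more peaks than an average window of their length, but that average is low. The median window held 0 peaks of either list, or 1 at the lengths of Cpt1a and Ppargc1a. The genes were chosen with earlier results of these data known, so this comparison cannot show that they stand out. For TRb PTU the number ran from 8 at G6pc to 20 at Cpt1a, against means of 2.17 and 3.35 over windows of the same length along the genome. Among windows of 100 kb, 2.49% held at least the 13 TRb PTU peaks of Pck1 and 1.55% at least the 15 of Fgf21. At Ppargc1a 14.1% of windows of its length held as many TRb PTU peaks and 28.2% as many TRb T3 peaks. For the 20 TRb T3 peaks of G6pc the share was 0.238%, and for its 8 TRb PTU peaks 9.33%. At Pdk4 the shares were 7.06% for TRb PTU and 8.65% for TRb T3.

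Close neighbours were more frequent in these windows than in the whole lists, though in TRb T3 only with G6pc included. Spacing depends on how many peaks a window holds, so this may not be a separate trait. The nearest midpoint of the same list was within 1 kb for 33 of 77 TRb PTU peaks (42.9%, interval 31.6 to 54.6%), beside 29.9% of the list. In TRb T3 it was 29 of 67 (43.3%, interval 31.2 to 56.0%), beside 27.9%. Without G6pc the TRb T3 share was 27.7%. TRb PTU peaks were wider than their TRb T3 partner in 28 of 43 pairs (65.1%), beside 59.7% of all pairs. A TRb PTU peak that covered 2 TRb T3 peaks occurred 3 times, with 2 at G6pc and 1 at Cpt1a (3.90% of 77, beside 0.983% of the list).

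None of the 144 peaks overlapped a GFP PTU peak. In the whole lists this overlap was 0.162% of TRb PTU and 0.102% of TRb T3 peaks, so 0 is near what the whole lists show.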

How the data were processed

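The data were 3 deposited peak lists on mm9, 1 for each ChIP library. The 3 input samples were not analysed here. Samples were grouped by title. Per the labels' protocols, formaldehyde and disuccinimidyl glutarate were the crosslinkers and tagged receptor was captured on streptavidin agarose. Bowtie, SAMtools and MACS2 are named in the submitters' processing notes, while settings and control library were not given in these sources. Each score is a value that the authors deposited per peak, of unstated type, and it served to rank and filter within a list. A caller can join close peaks in one list and split them in the other.

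Peaks entered a window by their midpoint, and overlap needed 1 bp. Intervals are exact binomial. Positions are 1-based. The genes, windows and lists were chosen with earlier results of these data known. Peaks named by rule were the highest-scored of each class per window, those in the top decile and the largest rank differences; others were named after their values were seen. No p-value is given. Overlap counts were checked on simulated lists against a direct count. Alternatives were other overlap rules, a median score filter, equal list lengths, removal of GFP sites, any overlap with the window, and windows longer by 50 kb on each side. Peak positions relative to genes, half-sites in peaks and other pathway genes were planned but not analysed here, since no mm9 annotation or sequence was used. That each window holds its gene follows from the window's definition and was not checked. Python 3.11.15, numpy 2.4.6, pandas 2.3.3, scipy 1.17.1 and matplotlib 3.10.9 were used.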

Additional observations from a re-analysis of the deposited data

How the results depend on the processing

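No paired analysis was possible because there was a single library in each condition. Over the 6 windows, the median score filter on both lists left 48 TRb PTU peaks (77 before) and 31 TRb T3 peaks (67), of which 24 and 24 were shared (46 and 49) and 7 were T3-only (18); it removes peaks by construction and can make shared peaks single. Windows extended by 50 kb on each side held 117 TRb PTU peaks and 55 PTU-only peaks (31 before). T3-only minus PTU-only peaks over the 6 windows (-13) was -8 with midpoints within 1 kb, -2 with equal numbers, -33 with extended windows and -23 without G6pc, where 7 T3-only peaks were left; the last choice was made after seeing the data. By window, this difference was at Pck1 (-3) 1 with the median filter, 0 with equal numbers and -6 with extended windows. At G6pc (10) it was 1 with the median filter and 1 with extended windows. At Cpt1a (-5) it was -3 within 1 kb and 0 with equal numbers. At Pdk4 (-2) it was -1 within 1 kb, 0 with the median filter and -1 with equal numbers. At Fgf21 (-7) it was -15 with extended windows, and at Ppargc1a (-6) no setting moved it by over 1.5 times. Where no construction is named, the cause was not tested. Removing peaks at GFP sites could not change the totals over the 6 windows, because no peak in them overlapped a GFP PTU peak. Counting any overlap with the window changed 0 of these totals. The median rank difference of pairs (-2.28 points) was -3.87 when pairs with a score below the median were left out and -1.13 without G6pc. Unknown depth limits each comparison of peak numbers.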
